A study of Mus musculus with 5 samples.

Results

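The 10 genes of MHC class I antigen presentation B2m, H2-K1, H2-D1, Tap1, Tap2, Tapbp, Psmb8, Psmb9, Psmb10 and Nlrc5 were taken by name from the 22463 genes with a count in any of 5 inDrop single-cell libraries of mouse colon, and all 10 had counts in each library. 4 libraries held tumors of wild-type (WT) mice induced with azoxymethane and dextran sodium sulfate (AOM/DSS) and treated with 5FU+Irinotecan in repeated cycles, taken at day 1 (replicate 1 and replicate 2), day 3 and day 6. The fifth library, called normal stroma here, came from untreated WT colon through the fibroblast dissociation. Day 1 is the early treatment group of the study, and days 3 and 6 are its late group. Mice were of C57BL/6J or mixed C57BL/6J and 129 background and entered experiments as young adults, and tumors were first seen by colonoscopy before treatment began. The day 1 libraries are described as biological replicates, as are days 3 and 6 for the late group. Late against early p-values rest on the spread within these groups of few libraries. P-values of day 6 against day 1 rest on the spread between the day 1 libraries alone. For differences between kinds of cells, they rest on how those differences vary between the day 1 libraries. AOM/DSS is a chemical model of inflammation-driven tumors of the distal colon, 5-FU blocks thymidylate synthesis and Irinotecan inhibits topoisomerase I.

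Nearly every nucleated cell shows peptides of its own proteins on class I molecules, which CD8 T cells and natural killer cells read. The proteasome cuts the proteins, and under interferon gamma its catalytic subunits are replaced by the immunoproteasome subunits encoded by Psmb8, Psmb9 and Psmb10. The transporter of Tap1 and Tap2 carries the peptides into the endoplasmic reticulum, and tapasin (Tapbp) holds the transporter beside empty class I molecules. There the peptides are loaded on the heavy chains of H2-K1 and H2-D1, which need the light chain beta-2 microglobulin (B2m), and Nlrc5 is the transactivator that binds class I promoters. In the colon, interferon and inflammation raise these genes in epithelium, where the resting level is low.

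On GRCm38, 7 of the 10 genes lie on chromosome 17 in and around the major histocompatibility complex. From low to high coordinates these are Tapbp (chr17:33915899-33929292), H2-K1 (chr17:33996017-34000347), Psmb9 (chr17:34181987-34187764), Tap1 (chr17:34187553-34197225), Psmb8 (chr17:34197721-34201454), Tap2 (chr17:34203527-34216321) and H2-D1 (chr17:35262730-35267499). B2m lies on chromosome 2 (chr2:122147686-122153083), and Nlrc5 (chr8:94434356-94527272) and Psmb10 (chr8:105935735-105938444) lie on chromosome 8. Tap1 and Psmb9 are transcribed away from each other from the same stretch of DNA.

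The sequence just before the start site of 4 of the genes is shown because the data compare the genes as a group and their promoters share letters. The motifs were chosen with these promoters in view. The RefSeq table (GRCm38.p6) held a promoter for 8 of the 10 genes, and not for Tap2 or Nlrc5. Each line runs 5′ to 3′ on the strand of the gene and ends at the base before its start site. Capitals mark 4 motifs, searched on both strands in the 250 bases before the start: the interferon regulatory factor motif AANNGAAA, the kappa B palindrome (3 G and 3 C with 5 bases between), TGACG, the core of the X2 element, and the Y box CCAAT. The Tap1 line is the whole stretch between the RefSeq start sites of Psmb9 and Tap1. The gene coordinates above come from another annotation, in which Psmb9 and Tap1 overlap. The RefSeq start sites of Tapbp (33919478), Psmb9 (34187330), Psmb8 (34198195) and H2-D1 (35263094) lie inside those gene coordinates. Their searched windows therefore lie within the genes as given above.
B2m (chr2:122147527-122147686, plus strand): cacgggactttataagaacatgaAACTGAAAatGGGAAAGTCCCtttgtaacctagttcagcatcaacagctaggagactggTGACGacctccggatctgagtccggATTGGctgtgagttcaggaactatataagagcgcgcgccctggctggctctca
H2-K1 (chr17:34000348-34000507, minus strand): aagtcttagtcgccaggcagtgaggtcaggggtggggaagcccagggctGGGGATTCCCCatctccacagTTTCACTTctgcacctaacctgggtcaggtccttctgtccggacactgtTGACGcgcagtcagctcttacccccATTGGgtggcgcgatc
H2-D1 (chr17:35262914-35263093, plus strand): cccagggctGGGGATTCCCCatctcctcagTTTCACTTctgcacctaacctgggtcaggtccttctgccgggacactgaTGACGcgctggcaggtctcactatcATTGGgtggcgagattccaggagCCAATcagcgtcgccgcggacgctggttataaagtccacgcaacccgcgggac
Tap1 (chr17:34187331-34187555, plus strand): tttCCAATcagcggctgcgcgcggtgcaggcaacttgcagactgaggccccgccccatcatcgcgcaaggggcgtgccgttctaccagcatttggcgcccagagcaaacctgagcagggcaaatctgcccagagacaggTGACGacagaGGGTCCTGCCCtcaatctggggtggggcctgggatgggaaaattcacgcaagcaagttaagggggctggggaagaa

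B2m, H2-K1 and H2-D1 held all 4 motifs, as did 0.122% of the 32851 promoters in the table. On their own, the motifs were common: 21.3% of all promoters held AANNGAAA, 12.2% the palindrome, 17.8% TGACG and 33.8% CCAAT. The stretch between Tap1 and Psmb9 held TGACG, the palindrome and CCAAT, and no AANNGAAA. Tapbp held only CCAAT, and Psmb8 and Psmb10 held none of the 4 in these windows. A match is a description of the letters and not evidence of binding.

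Levels are given as CPM, the UMI counts of a gene per 1000000 counts of the summed cells. inDrop counts transcript ends, and levels of different genes were not compared with each other. Values for all libraries are given in time order, with replicate 1 of day 1 first and normal stroma last, and this order holds throughout. The libraries kept 748, 2403, 1419, 2826 and 1095 cells, from 5132360 to 16904947 UMIs per library, with medians of 2903 to 3601 UMIs per cell. Clusters were gathered into epithelial cells (579, 1610, 1269, 2188 and 397 in the same order), stromal cells (29, 137, 116, 153 and 511) and immune cells (135, 577, 34, 483 and 147). Pairs of libraries shared 4 to 41 barcodes. Replicate 1 of day 1 and the day 3 library carried a single index, the others a dual index, so that each treated pair of the same structure holds an early and a late library.

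The day 6 library stood apart. For 9 of the 10 genes (Psmb10 was the exception) it held the highest level of the 4 treated libraries in epithelial, in stromal and in immune cells alike. Among all genes tested, 18.7, 18.7 and 18.2% were highest at day 6 in these kinds of cells. The day 6 library was thus highest in all kinds of cells and not in epithelium alone.

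**Figure D1:**
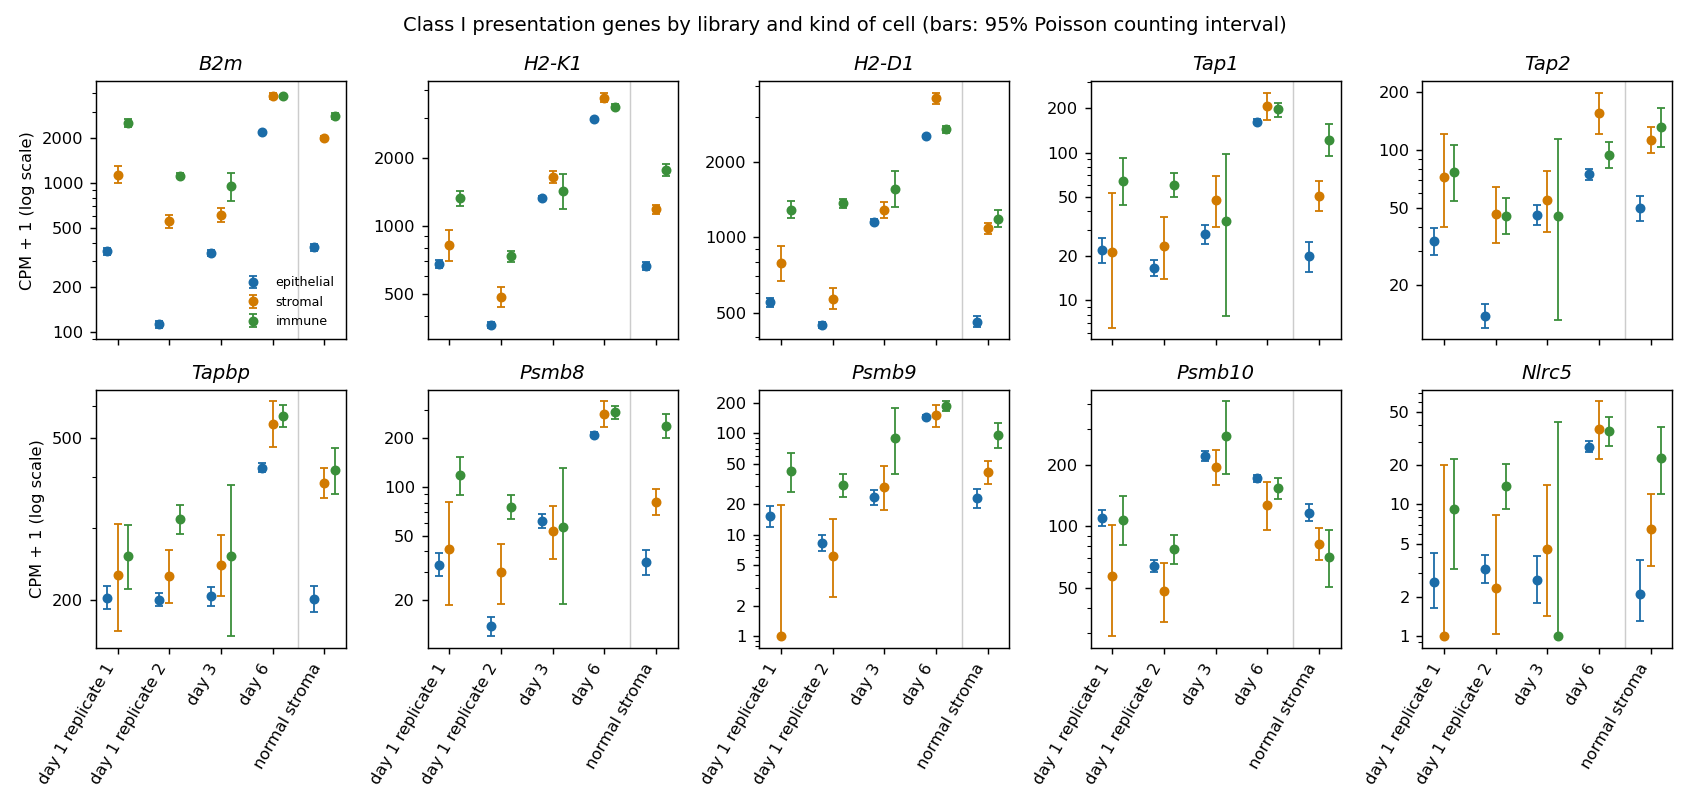
Level of each gene (CPM + 1, log axis) in every library, with epithelial cells in blue, stromal cells in orange and immune cells in green, and bars for the 95% Poisson counting interval. Day 6 is highest of the treated libraries in all kinds of cells except for Psmb10, whose highest points are at day 3.

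B2m, the light chain of every class I molecule, measured 348, 112, 339 and 2186 CPM in epithelial cells of the treated libraries. In stromal cells it measured 1139, 553, 615 and 3843 CPM, and in immune cells 2528, 1123, 952 and 3813 CPM. The day 6 values lay above all others in each kind of cell, most clearly in epithelium, where the other 3 libraries stayed between 112 and 348 CPM. The day 1 libraries differed from each other by 3.11 times in epithelial cells, replicate 1 being the higher. In edgeR, B2m was higher at day 6 than at day 1 by 3.55 ± 0.58 on the log2 scale (SE) in epithelial cells (adjusted p = 1.22e-05) and by 2.37 ± 0.67 in stromal cells (edgeR adjusted p = 0.0178). Both calls were lost with DESeq2 (3.55 and 2.39). The 1.24 ± 0.63 of immune cells did not pass the test (edgeR adjusted p = 0.437).

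The heavy chain genes followed. H2-K1 measured 677, 363, 1330 and 2967 CPM in epithelial cells of the treated libraries in the same order, 818, 484, 1649 and 3705 CPM in stromal cells, and 1325, 732, 1428 and 3375 CPM in immune cells. H2-D1 measured 550, 447, 1152 and 2534 CPM in epithelial cells, 788, 569, 1282 and 3575 CPM in stromal cells, and 1286, 1365, 1561 and 2688 CPM in immune cells. Unlike B2m, both were already above the day 1 libraries at day 3 in epithelial and stromal cells. In the 34 immune cells of day 3 the counting intervals (1193 to 1697 CPM for H2-K1, 1314 to 1841 CPM for H2-D1) overlapped those of the higher day 1 library. Day 6 exceeded day 1 by 2.82 ± 0.58 (H2-K1, edgeR adjusted p = 0.000449) and 2.66 ± 0.56 (H2-D1, edgeR adjusted p = 0.000615) in epithelial cells. In stromal cells the changes were 2.69 ± 0.68 (edgeR adjusted p = 0.00463) and 2.58 ± 0.67 (edgeR adjusted p = 0.00694). In immune cells the values of 1.89 ± 0.59 and 1.21 ± 0.55 did not pass (edgeR adjusted p = 0.147 and 0.356). Class I heavy chain genes share near-identical sequence, so how the counting split reads between H2-K1, H2-D1 and the H2-Q genes is uncertain.

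Tap1 and Tap2 encode the subunits of the peptide transporter. Tap1 measured 20.8, 15.6, 27.1 and 161 CPM in epithelial cells, 20.3, 22.2, 46.8 and 206 CPM in stromal cells, and 63.6, 59.6, 33.2 and 195 CPM in immune cells. Day 6 lay above the other libraries by at least 3.06 times in each kind of cell. Tap1 rose in all of them, by 3.46 ± 0.40 in epithelial (edgeR adjusted p = 1.09e-08), 3.21 ± 0.54 in stromal (edgeR adjusted p = 1.06e-06) and 1.82 ± 0.43 in immune cells (edgeR adjusted p = 0.0498), where the call was lost with DESeq2 (1.83). Its partner Tap2 measured 32.6, 12.8, 45.1 and 73.7 CPM in epithelial cells, and rose there by 2.03 ± 0.41 (edgeR adjusted p = 0.000334). In stromal cells Tap2 went from 71.2 and 45.8 CPM to 156 CPM (edgeR adjusted p = 0.0645), and in immune cells from 75.9 and 44.6 to 93.2 CPM (edgeR adjusted p = 0.511), so that immune day 6 was only 1.23 times the next library.

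Tapbp, which encodes the loading chaperone tapasin, measured 201, 199, 203 and 420 CPM in epithelial cells, 229, 228, 243 and 540 CPM in stromal cells, and 254, 314, 255 and 565 CPM in immune cells. The day 1 libraries differed by 1.01, 1.01 and 1.23 times in these kinds of cells, and day 6 was 2.08, 2.22 and 1.80 times the next library. The change passed in epithelial cells (1.39 ± 0.46, edgeR adjusted p = 0.0434). The epithelial call was lost without day 3 (1.39) and without TMM (1.07). It did not pass in stromal (1.42 ± 0.55, edgeR adjusted p = 0.188) or immune cells (1.17 ± 0.48, edgeR adjusted p = 0.300).

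The immunoproteasome genes did not move as a set. Psmb9, the subunit that replaces the constitutive Psmb6 subunit, measured 14.3, 7.33, 22.3 and 142 CPM in epithelial cells, 0, 5.23, 28.8 and 149 CPM in stromal cells, and 41.0, 30.1, 88.6 and 183 CPM in immune cells. The stromal 0 was a count of 0 in 196740 UMIs, which allows up to 15.2 CPM (3 counts). Psmb9 rose in all kinds of cells, by 4.05 ± 0.41 in epithelial (edgeR adjusted p = 4.38e-10), 4.41 ± 0.60 in stromal (edgeR adjusted p = 3.13e-10) and 2.53 ± 0.45 in immune cells (edgeR adjusted p = 0.0135), where the call was lost with DESeq2 (2.55). Psmb8, the replacement of Psmb5, measured 32.1, 12.8, 60.5 and 208 CPM in epithelial cells, 40.7, 28.8, 52.1 and 281 CPM in stromal cells, and 117, 74.6, 55.4 and 288 CPM in immune cells. It rose by 3.54 ± 0.44 in epithelial (edgeR adjusted p = 6.17e-08) and 3.13 ± 0.52 in stromal cells (edgeR adjusted p = 6.70e-07), while the 1.78 ± 0.45 of immune cells did not pass (edgeR adjusted p = 0.0747).

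Psmb10, which replaces Psmb7, had another order of libraries. It measured 109, 62.9, 220 and 171 CPM in epithelial cells, 55.9, 47.1, 194 and 126 CPM in stromal cells, and 107, 76.2, 277 and 153 CPM in immune cells. Day 3 was highest and day 1 replicate 2 lowest in each of them, and within each index structure the late library was above the early one. Psmb10 was called higher at day 6 than at day 1 in epithelial cells (1.31 ± 0.44, edgeR adjusted p = 0.0453), a call lost with DESeq2 (1.32) and without day 3 (1.31), but not in stromal (1.44 ± 0.52, edgeR adjusted p = 0.130) or immune cells (0.93 ± 0.45, edgeR adjusted p = 0.395).

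Nlrc5, the transactivator, was sparse outside day 6. It measured 1.58, 2.23, 1.66 and 26.5 CPM in epithelial cells, 0, 1.31, 3.60 and 36.6 CPM in stromal cells, and 8.21, 12.9, 0 and 35.0 CPM in immune cells. The 0 of stromal cells allows up to 15.2 CPM and that of the 34 immune cells of day 3 up to 33.2 CPM (3 counts). Nlrc5 rose by 3.93 ± 0.51 in epithelial cells (edgeR adjusted p = 1.51e-07). The stromal 3.12 ± 1.15, from a single count in both day 1 libraries together, and the immune 1.67 ± 0.49 did not pass (edgeR adjusted p = 0.142 and 0.124).

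In all, 10 of 10 genes were called higher at day 6 in epithelial cells, where 5.53% of 15546 genes were. In stromal cells 6 of 10 were called higher against 2.28% of 9877 genes, and in immune cells 2 of 10 (Tap1 and Psmb9) against 1.27% of 11265. None was called lower, and the median log2 changes of the 10 genes were 3.14, 2.64 and 1.45, beside -0.03, -0.04 and 0.02 over all genes tested. Day 6 is a single library, so this is a test of that library, with its spread taken from the day 1 libraries at 1 residual degree of freedom before moderation. Scaling by library totals without TMM gave 7, 6 and 4 calls among the 10 (against 2.45, 1.65 and 2.14% of all genes), and moved the split of all calls from 859 higher and 689 lower to 381 and 609 in epithelial cells, from 225 and 91 to 163 and 112 in stromal cells, and from 143 and 103 to 241 and 420 in immune cells. DESeq2 called 8, 2 and 0 of the 10 higher, against 3.05, 0.613 and 0.211% of the genes it gave an adjusted p, and 10, 8 and 5 had an unadjusted p under 0.05 in it. Lost in DESeq2 were the calls of B2m and Psmb10 in epithelial cells, of B2m, Tap1 and Psmb8 in stromal cells and of Tap1 and Psmb9 in immune cells, and stromal Psmb9 got no adjusted p. Day 6 exceeded day 1 replicate 2, of the same index structure, by 2.12 (Tapbp) to 19.5 times (B2m) in epithelial cells.

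**Figure D2:**
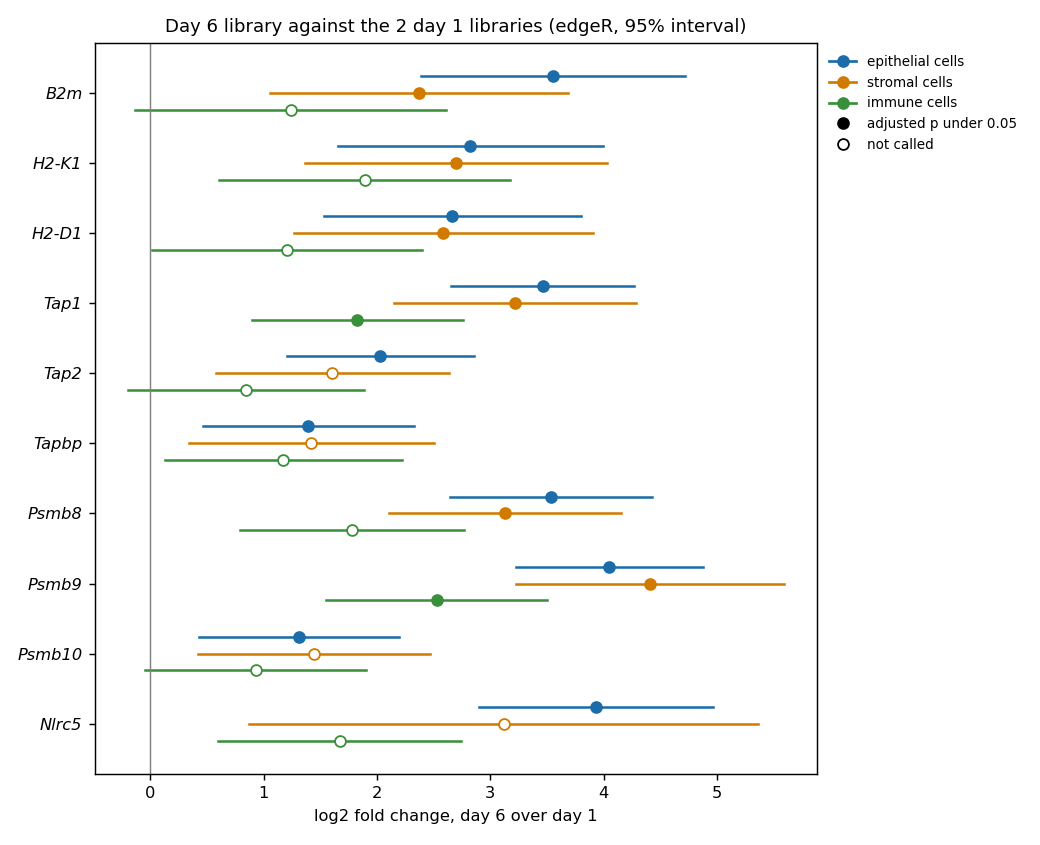
Log2 fold change of day 6 over the day 1 libraries for each gene (edgeR, points) with 95% intervals, by kind of cell, filled where the adjusted p is under 0.05. All epithelial points are filled, and the immune point is the lowest for each of the 10 genes.

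Values of other cells moved in the same libraries and are given beside these changes. The 67 immune markers summed to 3803, 2289, 1651 and 8147 CPM in epithelial cells of the treated libraries, that is 3.74, 4.19, 11.3 and 5.31% of their level in immune cells of the same library. B2m in epithelial cells stood at 13.8, 9.98, 35.6 and 57.3% of its immune level, and Tap1 at 32.7, 26.2, 81.6 and 82.7%. At day 6 all 10 genes stood between 57.3% (B2m) and 112% (Psmb10) of the immune level in epithelial cells, against 5.31% for the immune markers. In stromal cells the immune list summed to 4722, 3752, 2244 and 12841 CPM, that is 4.64, 6.87, 15.4 and 8.38% of their immune level. 30, 44, 41 and 48 of the 67 had a count in stromal cells, and 57, 65, 60 and 67 in epithelial cells. Csf3r, Cxcr2, Cd68, Adgre1, Cd3d, Cd3e and Cd3g were among the markers at 0 in stromal cells of day 6. S100a8, S100a9, Lyz2, C1qa, Trac and Jchain were among the 48 with counts there. Cd3d and Cd3g were at 0 in stromal cells of each other treated library as well. Cd3d was also at 0 in the immune cells of day 1 replicate 1 and of day 3. The 57 stromal markers were lowest at day 6 in epithelial cells (407 CPM, against 698 to 1348 CPM). The 56 epithelial markers summed to 10008, 6657, 19522 and 15226 CPM in stromal cells of the treated libraries. In immune cells they summed to 15814, 11057, 20452 and 13668 CPM, and in epithelial cells to 25582, 22288, 24545 and 33261 CPM. At day 3 they exceeded the stromal markers in stromal cells (8963 CPM) and the immune markers in immune cells (14583 CPM). The part of free RNA from immune or epithelial cells in the result was not tested.

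Whether the day 6 change differed between kinds of cells was tested with interaction terms. Against stromal cells, the epithelial change was larger only for B2m, by 1.43 on the log2 scale (95% interval 0.95 to 1.91, edgeR adjusted p = 2.08e-05), where 1.63% of 13701 genes were called in that direction. DESeq2 called none of the 10 (0.159% of its genes), with 1 at an unadjusted p under 0.05. For the other 9 genes the difference was not detectable in edgeR. H2-K1 (0.27, -0.19 to 0.72), H2-D1 (0.17, -0.30 to 0.63) and Tapbp (0.07, -0.55 to 0.68) had the narrowest intervals, while Psmb9 (-0.83, -2.23 to 0.58) and Nlrc5 (-0.94, -3.34 to 1.46) were too sparse in day 1 stroma for a narrow one.

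Against immune cells, the epithelial change was larger for 8 of 10 genes, where 3.76% of all genes were called in that direction. The difference was 2.51 for B2m (2.03 to 2.99, edgeR adjusted p = 2.90e-13), 1.96 for Psmb8 (1.30 to 2.61, edgeR adjusted p = 8.07e-06) and 1.72 for Tap1 (1.03 to 2.42, edgeR adjusted p = 0.000278). H2-D1, Psmb9, Tap2, H2-K1 and Nlrc5 followed with 1.57, 1.62, 1.39, 1.04 and 1.99. The Nlrc5 call was lost without day 3 (1.92). DESeq2 called 2 of the 10 (B2m and H2-D1), against 0.99% of its genes. Tapbp (0.32, -0.26 to 0.90) and Psmb10 (0.53, -0.11 to 1.18) did not pass (edgeR adjusted p = 0.777 and 0.537).

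**Figure D3:**
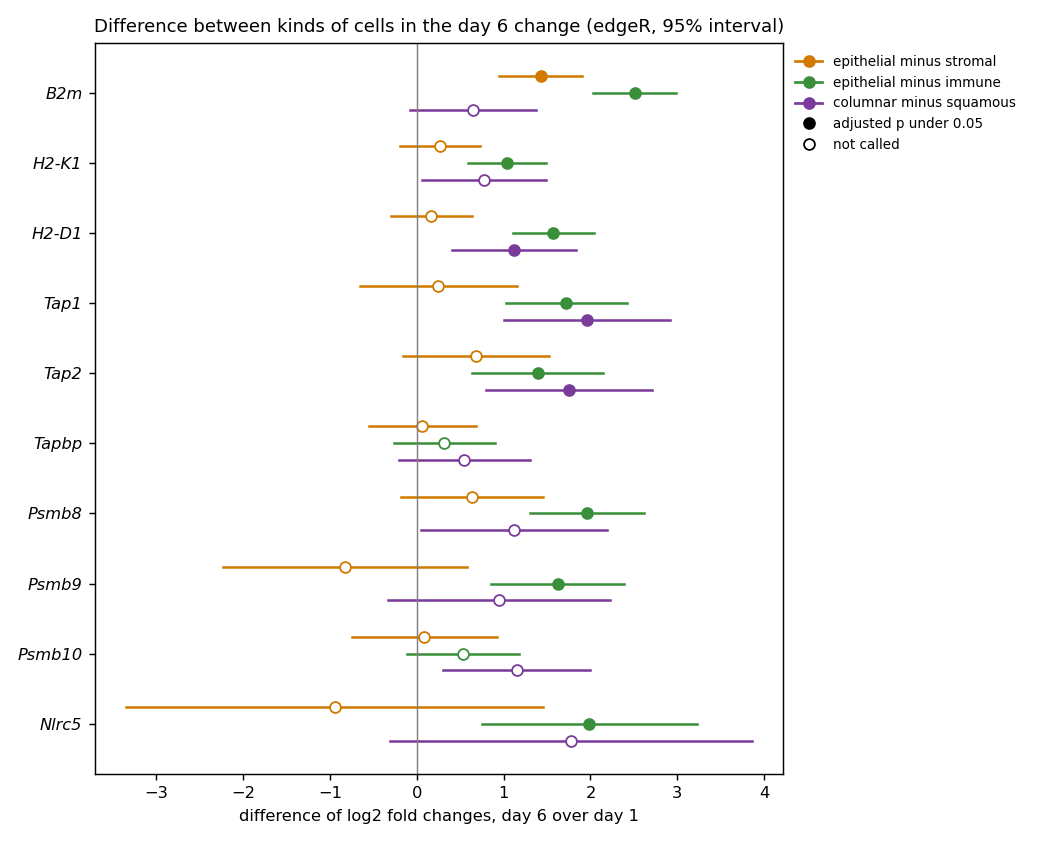
Difference of day 6 changes between kinds of cells (log2, edgeR) with 95% intervals: epithelial minus stromal in orange, epithelial minus immune in green, columnar minus squamous in purple, filled where the adjusted p is under 0.05. In orange only B2m is filled, and in green all but Tapbp and Psmb10.

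The immune cells were not the same mixture in each library. Neutrophil-like cells were 51.9, 68.1, 82.4 and 4.97% of immune cells in the treated libraries, and T cell-like and plasma-like cells made up 32.3 and 31.5% at day 6. The T cell-like cluster also carried Mcpt1 and Mcpt2, proteases of mucosal mast cells, among its leading genes. With macrophage-like clusters alone as immune cells the count was 8 of 10 as well (1.62% of all genes), and with neutrophil-like clusters alone 4 of 10 (1.23%). The median difference of the 10 genes was 1.78 and 1.22 in these fits, beside 0.13 and 1.83 over all genes, so that with neutrophil-like clusters it lay below that of all genes. These alternatives were chosen after seeing the data. The stromal mixture shifted too. Endothelial-like cells were 41.4, 44.5, 50.9 and 9.80% of stromal cells in the treated libraries, and lymphatic endothelial-like cells 10.3, 27.0, 23.3 and 53.6%. Paneth-like cells were 38.7, 5.03, 6.15 and 0.0914% of epithelial cells. The part of these shifts in the differences between epithelial and stromal cells was not tested.

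Within single cell types the day 6 level was again the highest for most genes, among treated libraries with at least 20 cells of the type. All 4 were compared in columnar-like, squamous-like and neutrophil-like cells, the last with 24 cells at day 6. Goblet-like and macrophage-like cells lacked day 3, and fibroblast-like and lymphatic endothelial-like cells lacked day 1 replicate 1. In columnar-like cells it was the highest for 10 of 10 genes (16.6% of all genes were highest there), and in squamous-like cells for 8 of 10 (21.6%). Goblet-like cells had 9 of 10 (30.5%), fibroblast-like cells 8 of 9 with enough counts (28.2%), lymphatic endothelial-like cells 9 of 10 (26.2%), neutrophil-like cells 8 of 9 (21.0%), macrophage-like cells 8 of 10 (29.3%) and T cell-like cells 9 of 10 (49.7%, with only day 1 replicate 2 to compare). Psmb10 was an exception in 6 of these 8 types, Tap2 in squamous-like and macrophage-like cells, and Nlrc5 in T cell-like cells. The median log2 change of the genes, with 5 CPM added to each level, was 2.71 in columnar-like, 2.32 in goblet-like, 1.82 in squamous-like, 2.84 in fibroblast-like, 2.66 in lymphatic endothelial-like, 1.44 in neutrophil-like, 1.02 in macrophage-like and 1.27 in T cell-like cells. Medians over all genes of these types lay between -0.71 (neutrophil-like) and -0.01.

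**Figure D4:**
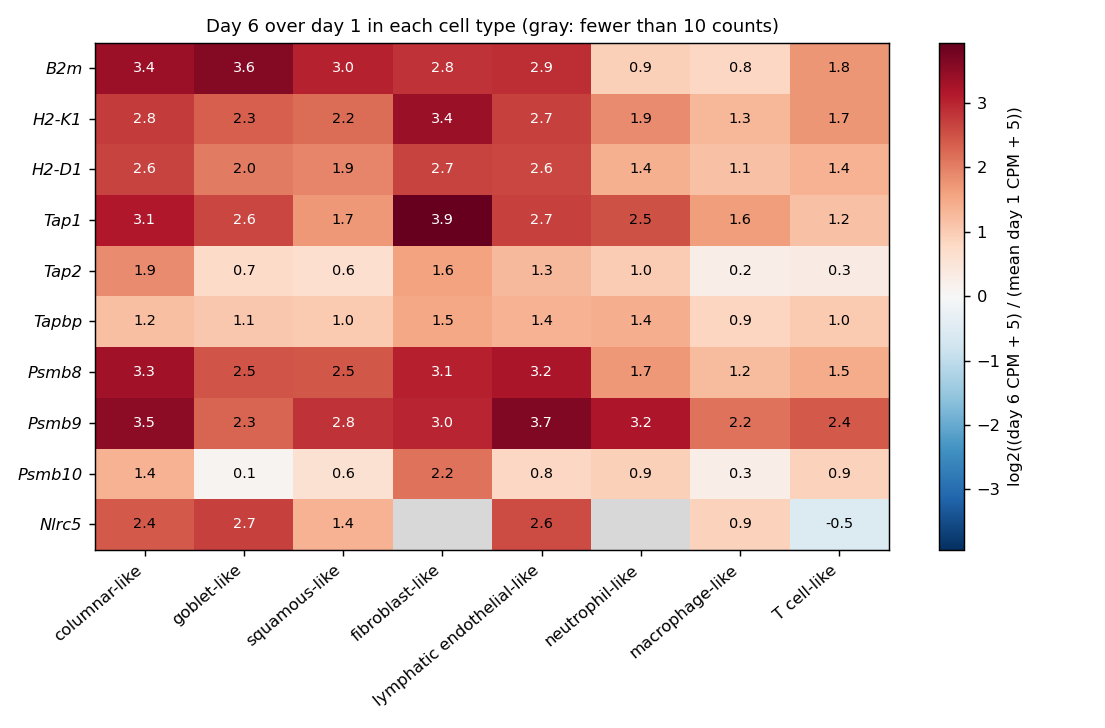
Log2 change of day 6 over the mean of day 1 in each cell type with at least 20 cells (CPM with 5 added), genes in rows; gray marks fewer than 10 counts. Fibroblast-like, lymphatic endothelial-like and T cell-like cells are set against day 1 replicate 2 alone. B2m reads 3.38 in columnar-like and 0.82 in macrophage-like cells, and Nlrc5 in T cell-like cells is the only value below 0.

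The level of B2m, the light chain, differed widely between types at day 1. Macrophage-like cells already held 2691 and 1313 CPM in the day 1 libraries and 3536 CPM at day 6. Columnar-like cells went from 348 and 114 CPM to 2445 CPM, goblet-like cells from 277 and 116 to 2455 CPM, and squamous-like cells from 320 and 84.0 to 1696 CPM. Fibroblast-like cells went from 488 CPM (day 1 replicate 2) to 3527 CPM, and lymphatic endothelial-like cells from 563 to 4298 CPM, so that both stood near or above the macrophage-like level at day 6. At day 6 the order of types ran from T cell-like (4319 CPM, 95% counting interval 4099.6 to 4548) and lymphatic endothelial-like (4298 CPM, 4029 to 4582) over plasma-like cells (3937 CPM, 3787 to 4090.4) down to neutrophil-like (1927 CPM), enteroendocrine-like (1820.2 CPM) and squamous-like cells. The intervals of the first 3 overlapped between neighbours. In day 1 replicate 2 the lowest level was that of erythroid-like cells (44.7 CPM), a cluster led by the hemoglobin genes Hbb-bt, Hbb-bs, Hba-a1 and Hba-a2. Types reached 20 cells in different libraries (plasma-like cells among the treated ones in day 6 alone, T cell-like in day 1 replicate 2 and day 6, Paneth-like in all but day 6), so no order over the treated libraries together is given.

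Columnar-like cells of day 6 were not in the clusters of day 1. They lay mainly in 3 clusters, of which 840 of 841, 292 of 297 and 220 of 241 cells came from day 6, with Clca4b and Pigr, Clca4b and Atp12a, and Adh1 and Pigr as their leading genes. The second of these also had Ido1 among its leading genes. It held the highest epithelial levels of H2-K1 (4162 CPM), H2-D1 (3834 CPM), Tap1 (263 CPM), Tap2 (125 CPM) and Nlrc5 (42.6 CPM). B2m (2898 CPM) and Tapbp (604 CPM) were highest there as well. So were Psmb9 (185 CPM) and Psmb10 (234 CPM), with counting intervals overlapping those of the first cluster. Psmb8 was higher in the first cluster (283 against 272 CPM), with overlapping intervals. Squamous-like clusters of day 6 ranged from 1474 to 1714 CPM of B2m, below the 1979 to 2898 CPM of columnar-like clusters, with no overlap. Since libraries and columnar clusters coincide, cell state and day cannot be told apart in columnar-like cells. Squamous-like clusters followed libraries in large part too. Day 6 gave 148 of 149, 270 of 299 and 309 of 372 cells of its squamous-like clusters. Day 3 gave 283 of 307 cells of another, and day 1 replicate 2 gave 123 of 129 cells of the last. Cell state and day are thus largely confounded in squamous-like cells as well.

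Squamous-like cells, a stratified keratinocyte-like lineage of these tumors, changed less than columnar-like cells for part of the genes. Squamous-like cells were 8.64, 11.7, 22.8 and 33.3% of epithelial cells in the treated libraries in order. In a test added after seeing the types, the day 6 change of columnar-like cells exceeded that of squamous-like cells by 1.96 for Tap1 (1.00 to 2.91, edgeR adjusted p = 0.00242), 1.75 for Tap2 (0.80 to 2.71, edgeR adjusted p = 0.00890) and 1.12 for H2-D1 (0.40 to 1.83, edgeR adjusted p = 0.0360), where 3.48% of 14489 genes were called in that direction. B2m (0.64, -0.08 to 1.37) and the other 6 genes did not pass. With squamous-like cells as the epithelium, the excess over immune cells was called for 1 gene (B2m, against 0.858% of all genes) and its median over the 10 genes was 0.40 in place of 1.60. With columnar-like cells it was called for 9 genes (6.33% of all genes), with a median of 2.06.

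The share of cells with a UMI, after thinning each cell to 1000 UMIs, ran in the same order. B2m was found in 29.0, 9.50, 27.7 and 83.9% of epithelial cells, and H2-K1 in 48.2, 27.2, 68.5 and 91.7%. Without thinning, B2m was found in 64.2, 39.3, 62.2 and 96.2%. In erythroid-like cells of day 1 replicate 2 the thinned share was 6.33% for B2m and 11.4% for H2-K1. Their median was 2617 UMIs, against 4890 UMIs in epithelial cells of that library. Tap1 was found in 1.90, 1.06, 2.44 and 14.5% and Psmb9 in 0.864, 0.248, 1.97 and 13.4% of thinned epithelial cells. At day 6 the exact (Clopper-Pearson) 95% intervals lay above those of the other treated libraries for each of these 4 genes. Most epithelial cells of day 6 held a UMI of B2m and H2-K1, and most held none of Tap1 or Psmb9 at this depth.

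Between late and early treatment (days 3 and 6 against the day 1 libraries) no gene was called by edgeR in any kind of cell, among 14544 epithelial, 8458 stromal and 10047 immune genes tested, a background of 0%. The median log2 change of the genes was 2.52, 2.04 and 1.13 (Nlrc5 was too low for the stromal test), and the lowest edgeR adjusted p values were 0.309, 0.484 and 0.379. At an unadjusted p under 0.05, 9 of 10, 6 of 9 and 2 of 10 genes stood out by edgeR, among 1759, 712 and 753 genes in all. DESeq2 called 7, 2 and 0 of them higher, against 1.57, 0.571 and 0.143% of the genes it gave an adjusted p. Both late libraries lay above both early ones for 8 of 10 genes in epithelial cells (11.2% of all genes), 7 of 9 in stromal cells (13.6%) and 4 of 10 in immune cells (14.5%). Of the pathway genes H2-Q7 and H2-Q4 stood at 4.92 and 2.67 on the log2 scale in epithelial cells (edgeR adjusted p = 0.309 and 0.452). B2m missed the separation of late from early libraries in all kinds of cells, because day 3 stayed below day 1 replicate 1. Without day 3 the calls came to 8 epithelial, 7 stromal and 3 immune genes (3.99, 2.46 and 2.03% of all genes), and without day 6 to 2, 1 and 0 (3.87, 4.76 and 0.023%), with an immune median of -0.34.

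At day 3, then, part of the genes had moved and part had not. Against day 1 replicate 1, of the same index structure, epithelial day 3 measured 2.09 times for H2-D1, 2.03 for Psmb10, 1.96 for H2-K1 and 1.88 for Psmb8, but 0.97 for B2m, 1.01 for Tapbp and 1.05 for Nlrc5. In stromal cells the ratio was 2.01 for H2-K1 and 0.54 for B2m. The median log2 change within the single index pair was 0.92 in epithelial, 0.83 in stromal and -0.070 in immune cells, and within the dual index pair (day 6 against day 1 replicate 2) 3.53, 3.09 and 1.71. No test was made within a pair of single libraries, and the 34 immune cells of day 3 give wide intervals.

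Untreated normal colon had low epithelial and higher immune levels. B2m measured 370 CPM in epithelial, 2003 CPM in stromal and 2822 CPM in immune cells of this library, H2-K1 665, 1183 and 1770 CPM, and Tap1 18.8, 50.0 and 121 CPM. Epithelial values lay near those of day 1 replicate 1 (348, 677 and 20.8 CPM) and below day 6. Day 1 replicate 2 held 112, 363 and 15.6 CPM, so the day 1 libraries did not both lie near normal colon. Stromal B2m lay above that of the day 1 and day 3 libraries (553 to 1139 CPM). Endothelial-like cells held the most B2m among normal stromal types (3555 CPM), followed by lymphatic endothelial-like (2958 CPM), fibroblast-like (2102 CPM), telocyte-like (1464 CPM), pericyte-like (1188 CPM) and myofibroblast-like cells (967 CPM). This library was dissociated in another way and is 1 sample, so no test was made.

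The other genes of the pathway, 47 with a column or row in the files used here, moved by group. Of the other class I heavy chains, 6 of 9 tested were called higher at day 6 in epithelial cells, 4 of 6 in stromal cells and 3 of 9 in immune cells, where 1 was lower, against the 5.53, 2.28 and 1.27% of all genes called higher. H2-Q7, a class Ib gene, had the largest change, from a mean of 3.43 CPM to 165 CPM in epithelial cells (5.84 ± 0.42, edgeR adjusted p = 3.25e-14), by 4.26 ± 0.53 in stromal and 3.55 ± 0.44 in immune cells (edgeR adjusted p = 1.80e-12 and 0.00220). H2-Q4 was called in each kind of cell (3.56, 2.26 and 2.32), H2-Q6 and H2-Q10 in epithelial cells (3.75 and 2.48), H2-T22 in epithelial and stromal cells (1.58 and 1.78), H2-T23, the Qa-1 gene, in stromal cells (1.66) and H2-M3 in epithelial and immune cells (1.87 and 2.08). The gene called lower was H2-Q10 in immune cells (-2.66 ± 0.54, edgeR adjusted p = 0.0253), whose counts at day 1 came from neutrophil-like cells (188 and 183 CPM there, 77.1 CPM at day 6).

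No other proteasome gene was called in any kind of cell, of 8, 7 and 7 tested. The constitutive counterparts Psmb5 and Psmb6 changed by 0.39 ± 0.44 and 0.51 ± 0.44 in epithelial cells (edgeR adjusted p = 0.700 and 0.586). They are named as the counterparts of Psmb8 and Psmb9, a choice made after their values were seen. Of 6 loading and trimming genes only Tapbpl, a second peptide editor related to tapasin, was called, in epithelial (1.52 ± 0.39, edgeR adjusted p = 0.00627) and stromal cells (2.03 ± 0.61, edgeR adjusted p = 0.0346).

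Of the interferon signalling and transcription genes reported here 4 of 18 were called higher in epithelial cells, 2 of 14 in stromal cells and 0 of 17 in immune cells, beside the same 5.53, 2.28 and 1.27%. Irf1, an interferon-induced transcription factor, rose by 2.45 ± 0.40 in epithelial and 1.89 ± 0.54 in stromal cells (edgeR adjusted p = 1.17e-05 and 0.0187). Irf8 (1.45 and 1.80) was called in the same kinds of cells, and Stat2 (1.27) and the receptor gene Ifngr1 (1.56) in epithelial cells. Irf1, Ifngr1 and Irf9 also differed from immune cells (by 1.45, 1.42 and 1.25), as did H2-Q7 and H2-Q10 (2.18 and 5.30). Irf1 and Ifngr1 changed more in columnar-like than in squamous-like cells (by 1.42 and 2.13).

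Of the ligands and killing genes, Ifng, the gene of interferon gamma, and Gzmb, of granzyme B, were called higher in immune cells at day 6 (3.33 ± 0.71 and 3.08 ± 0.65, edgeR adjusted p = 0.0402 and 0.0302). All 27 immune UMIs of Ifng at day 6 lay in the 156 T cell-like cells (80.7 CPM), against 0 UMIs in the 26 T cell-like cells of day 1 replicate 2. Gzmb measured 391 CPM in T cell-like cells of day 6 and 365 CPM in those of day 1 replicate 2, while T cell-like cells made up 3.70 and 4.51% of immune cells in the day 1 libraries and 32.3% at day 6. The part of this mixture in the change was not tested.

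**Figure D5:**
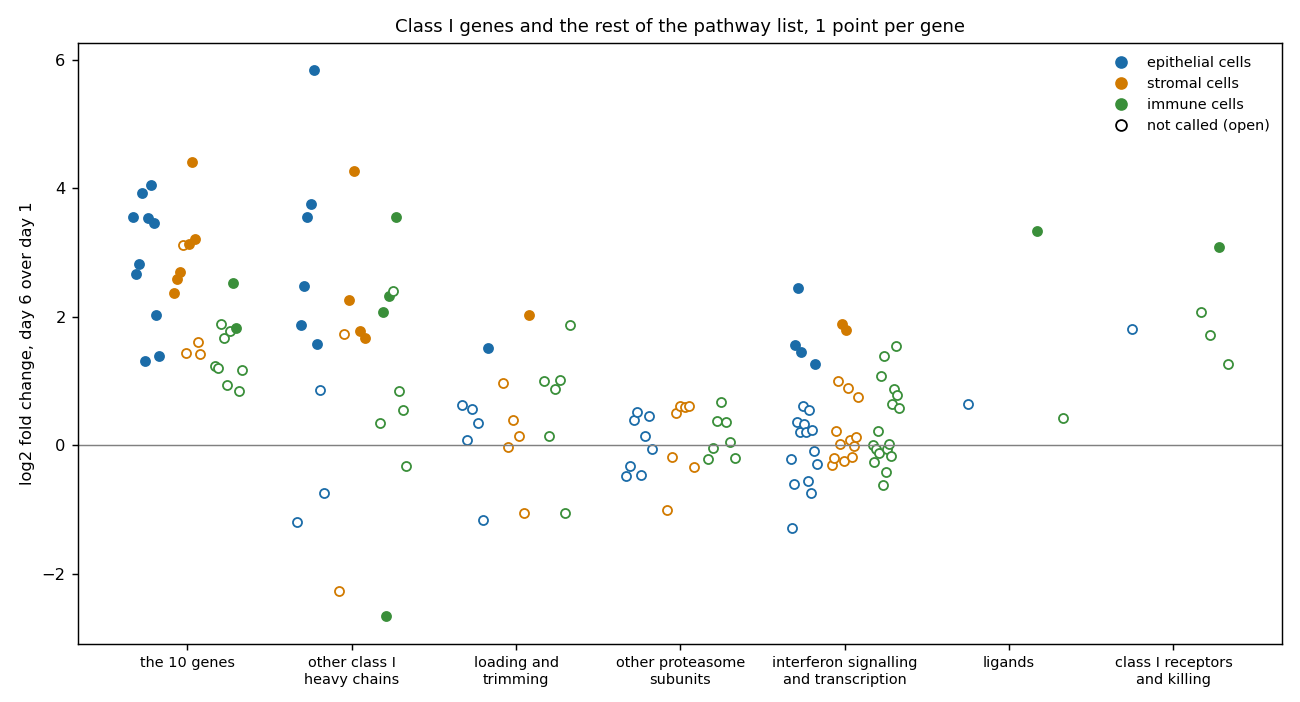
Log2 change of day 6 over day 1 for each of the 10 genes and the pathway genes (edgeR), grouped by role and colored by kind of cell, with called genes filled. The other proteasome subunits lie between -1.01 and 0.68 with none filled, while other class I heavy chains reach 5.84.

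Across 33 sums of a treated library and cell type, the genes outside these lists whose log2 CPM was most like the mean of the 10 were Sp110, Ifi47, Igtp, Irgm1 and Socs1 (Pearson r = 0.90, 0.88, 0.83, 0.81 and 0.81, among 13196 genes). The sums share libraries and depth, and the correlations are given as a description. In columnar-like cells Igtp, an interferon-inducible GTPase, measured 8.73, 5.33, 6.22 and 200 CPM in the treated libraries in order, and Socs1, an inhibitor of interferon signalling, 8.09, 3.76, 10.6 and 61.5 CPM. Ifi47 went from 21.0, 13.4 and 30.2 to 308 CPM. The day 6 library held the highest value of each in columnar-like cells, which the choice of these genes by likeness largely fixed.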

How the data were processed

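The authors deposited raw UMI counts per barcode and gene, which they made by inDrop sequencing and dropEst against GRCm38 (per the labels and methods), without normalization. Barcodes with at least 500 genes and at most 15% mitochondrial counts were kept. Cells of the treated libraries and of normal stroma were clustered with leidenalg 0.10.2 (2000 variable genes, 20 components, Leiden resolution 1) and named X-like from marker lists. No cell was removed as a doublet: Scrublet in scanpy 1.11.5 marked 0 to 7 cells per library, too few to have worked. Counts were summed per library and kind of cell and tested with edgeR 4.0.16 (quasi-likelihood, TMM, filterByExpr, Benjamini-Hochberg adjusted p under 0.05), with all 4 treated libraries in the fit. Interaction fits held the library as a block. DESeq2 1.42.0 and other alternatives are covered in the closing section. Named were the 10 genes, pathway genes called in a test, and the 5 genes most like the 10 in pattern. Some genes of the pathway list are not reported here. The members, lists and tests were chosen with earlier results of these data known. Scripts were tested on simulated data. Counting intervals (95%) and floors (3 counts) cover counting error only.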

Additional observations from a re-analysis of the deposited data

Results flagged for a closer look

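The day 6 change (day 6 over the day 1 libraries) differed between kinds of cells by an edgeR interaction test for the following genes, each as a log2 difference. Between epithelial and stromal cells only B2m differed, by 1.43 (adjusted p = 2.08e-05).

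Between epithelial and immune cells the excess was 2.51 for B2m, 1.04 for H2-K1, 1.57 for H2-D1, 1.72 for Tap1, 1.39 for Tap2, 1.96 for Psmb8, 1.62 for Psmb9 and 1.99 for Nlrc5. Among the pathway genes it was 2.18 for H2-Q7, 5.30 for H2-Q10, 1.42 for Ifngr1, 1.45 for Irf1 and 1.25 for Irf9. Adjusted p values of these 13 genes ran from 2.90e-13 (B2m) to 0.0450 (Nlrc5), by edgeR.

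Between columnar-like and squamous-like cells, in a test chosen after seeing the data, the excess was 1.12 for H2-D1, 1.96 for Tap1, 1.75 for Tap2, 2.13 for Ifngr1 and 1.42 for Irf1. All of these rest on the single day 6 library.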

How the results depend on the processing

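Day 6 is 1 library, so no alternative measures its own spread, and without either day 1 library no test was left. The counts below are of the 10 genes called. No paired analysis by replicate number was possible because the groups share fewer than 2 replicate numbers. Pairing early with late libraries by index structure, as a block, left 0 calls in each kind of cell, with medians of 2.29, 1.90 and 0.87, and called 24, 2 and 32 genes in all. Late against early treatment gave 0 calls in each kind of cell, but DESeq2 called 7 epithelial and 2 stromal genes, and without a filter on low counts edgeR called 9 epithelial, 3 stromal and 1 immune. Macrophage-like clusters alone gave 2, but there day 3, with 5 such cells against a minimum of 10, was not in the fit, so that this is the test of day 6. Leaving out each library gave 0 to 8 epithelial, 0 to 7 stromal and 0 to 3 immune calls, with medians of 1.37 to 3.14, 1.17 to 2.64 and -0.34 to 1.45. The highest counts came without day 3, and the lowest medians without day 6. Medians within dual index libraries were 3.53, 3.09 and 1.71 and within single index libraries 0.92, 0.83 and -0.070, the last reversed. Other medians that moved were 1.84 (squamous-like clusters), 2.59 (stroma called cell by cell), 1.55 (endothelial-like) and 1.47 (fibroblast-like). Over all genes DESeq2 called 430, 49 and 24 where edgeR called 0.

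For day 6 against day 1, squamous-like clusters gave 3 epithelial calls (median 2.06). In stroma, DESeq2, endothelial-like and fibroblast-like clusters each gave 2 calls, and medians were 3.14 cell by cell, 3.09 against day 1 replicate 2 alone, 2.10 endothelial-like and 2.16 fibroblast-like. In immune cells DESeq2 gave 0 and library totals without TMM 4. Without TMM the median of all genes shifted to -0.35, -0.22 and -0.16, and the epithelial split of all calls from 859 higher and 689 lower to 381 and 609. Over all genes DESeq2 called 779, 28 and 58 where edgeR called 1548, 316 and 246. Without day 3, 8 epithelial, 7 stromal and 3 immune genes were called. Leave-one-out medians ran from 2.71 to 3.53, 2.32 to 3.07 and 1.31 to 1.73. Epithelial medians were 3.08 at clustering resolution 2, 2.93 with compartments called cell by cell and 2.83 without TMM. In each of these fits the smallest epithelial adjusted p of the 10 genes was much larger, and fewer of them were called.

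For the excess over stromal cells, DESeq2 and squamous-like clusters gave 0 calls, and the median reversed to -0.50 in squamous-like clusters and -0.038 without day 3 (1 call). For the excess over immune cells, DESeq2 gave 2 calls, neutrophil-like clusters 4 (median 1.22), squamous-like clusters 1 (median 0.40), columnar-like clusters a median of 2.06, and the fit without day 3 gave 7 calls (median 1.47). Single genes that reversed were Tapbpl in endothelial-like clusters (-0.75), Ifngr1 over immune cells in squamous-like clusters (-0.18) and Irf1 over neutrophil-like clusters (-0.10). The cause was not tested. Endothelial-like, macrophage-like and neutrophil-like alternatives added to the interaction were chosen after seeing the data.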
